A study of Mus musculus with 15 samples.

Results

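Neural immunoglobulin-type adhesion molecules were examined as 9 genes, namely Ncam1, Ncam2, L1cam, Nrcam, Chl1, Nfasc, Cntn1, Cadm1 and Nrxn3. The genes were chosen by name, with earlier results of these data known. All probe sets annotated to 1 of these genes alone were taken, which gave 35 of the 45037 probe sets tested, and 9 of the 18193 genes that could be read. The arrays came from mice that model small cell lung cancer, a tumour of neuroendocrine type. In 10 tumours Rb and p53 were deleted (RbΔ/Δ and p53 Δ/Δ), and these are called Rb/p53 tumours 1 to 10. They were dissected 8 to 12 months after nasal instillation of an adenovirus expressing Cre. Tumours 11 to 13 had also lost p130 (Rb Δ/Δ with p53 Δ/Δ and also p130 Δ/Δ) and were taken at 6 months, so the p130 deletion and the shorter time cannot be told apart. The 2 controls were wild-type, tumour-free adult lungs. The virus can delete the genes in any infected cell, the age of the mice at infection and the promoter driving Cre were not given in the sources used here, and dissected tumours hold host cells besides tumour cells. The labels do not say that each array came from a separate mouse, so the p-values measure the spread between these arrays, which may be technical in part.

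Adhesion molecules of the immunoglobulin superfamily are membrane proteins whose extracellular immunoglobulin domains bind partners on the same or a neighbouring cell. In neurons they guide axon bundling, myelination and synapse formation. Ncam1 encodes the neural cell adhesion molecule, also known as CD56, which pathologists use as a marker of small cell lung cancer, and Ncam2 is its paralogue. L1cam, Nrcam, Chl1 and Nfasc form the L1 family, which anchors to the spectrin skeleton through ankyrins. Cntn1 encodes a contactin, held in the membrane by a lipid anchor, and Cadm1 encodes a synaptic and epithelial adhesion molecule also studied as a tumour suppressor. Nrxn3 encodes a neurexin, a presynaptic receptor of neuroligins, LRRTM proteins and cerebellins. Neurexins have laminin-like and EGF-like domains in place of immunoglobulin domains, so Nrxn3 belongs with the others by function rather than by fold.

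Upstream sequence is shown for 3 genes that the results turn on. Chl1 and the contactin gene Cntn3 lie next to each other on chromosome 6 and varied together between tumours, and Nrcam holds a searched motif in its upstream bases. The sequences are the 250 bases before the RefSeq start, on build GRCm38.p6, written 5′ to 3′ on the strand of the gene. They cover chr6:103510626-103510875 on the plus strand for Chl1, chr6:102464668-102464917 on the minus strand for Cntn3 and chr12:44328635-44328884 on the plus strand for Nrcam. Capitals mark an E-box CAGGTG.
Chl1: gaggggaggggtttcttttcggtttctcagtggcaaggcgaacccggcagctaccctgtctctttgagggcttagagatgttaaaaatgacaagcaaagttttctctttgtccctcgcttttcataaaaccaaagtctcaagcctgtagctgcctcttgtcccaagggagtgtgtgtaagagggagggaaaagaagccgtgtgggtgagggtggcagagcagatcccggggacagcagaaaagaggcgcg
Cntn3: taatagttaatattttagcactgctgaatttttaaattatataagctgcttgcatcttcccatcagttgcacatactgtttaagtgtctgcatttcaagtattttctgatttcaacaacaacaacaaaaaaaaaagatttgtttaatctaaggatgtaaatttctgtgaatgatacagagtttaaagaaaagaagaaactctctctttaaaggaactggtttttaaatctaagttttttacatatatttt
Nrcam: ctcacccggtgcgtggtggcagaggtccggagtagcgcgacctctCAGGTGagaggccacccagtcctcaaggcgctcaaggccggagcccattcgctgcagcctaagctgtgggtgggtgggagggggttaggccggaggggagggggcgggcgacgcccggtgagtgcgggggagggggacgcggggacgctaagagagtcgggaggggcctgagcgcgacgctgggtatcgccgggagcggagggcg
E-boxes are the letters bound by basic helix-loop-helix and zinc finger factors. The E-box CAGCTG was searched on both strands in windows running from 250 bases before to 50 bases after each start. The same was done for CAGGTG, and no 2 motifs counted in a member window overlapped. RefSeq windows were matched for 7 of the 9 genes, with 13 windows in all, and not for Ncam1 or Cadm1. Of these windows, 4 held a motif, in Nfasc, Nrcam and Nrxn3. Among all 32851 windows of 300 bases, 16.3% held CAGCTG, 20.2% held CAGGTG and 32.9% held either. The Chl1 and Cntn3 windows held none of these letters, which says nothing about the factors that act there.

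The deposited values are log2 expression after robust multi-array averaging (RMA), and each gene was read through its brightest probe set. A gene was called where the adjusted p of limma, fitted over all 45037 probe sets and adjusted by the Benjamini-Hochberg method, was under 0.05. The largest of the 15 arrays' lower quartiles, 5.05, served as a floor for low levels, and 7 of the 35 probe sets had all 3 group means at or below it. The arrays correlated at 0.948 to 0.989 within the Rb/p53 tumours, 0.986 to 0.991 within the p130-deleted tumours and 0.983 between the lungs. All 8 measured neuroendocrine markers were higher in both tumour groups, with list means of 11.18 to 12.15 in Rb/p53 tumours, 11.61 to 11.76 in the p130-deleted tumours and 5.38 to 5.72 in lung. The difference between the 3′ and 5′ Gapdh control probe sets, a measure of RNA integrity, was 0.72 to 0.88 in the lungs, -0.07 to 0.36 in Rb/p53 tumours and -0.03 to 0.08 in the p130-deleted tumours, with no overlap between tumours and lungs.

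Of the 9 genes, Ncam1, Nrcam, Chl1 and Nfasc were higher in Rb/p53 tumours than in lung, and 0 of 9 were lower (20.5% of all genes). Against 18.3% of all genes called higher in that comparison, 4 of 9 were called, with a median log2 difference of 1.03 beside -0.02 over all genes. The same 4 genes were called higher in the p130-deleted tumours and none lower, where 15.3% of all genes were called higher and 15.6% lower, and the medians were 0.76 and -0.02. These comparisons share the 2 lungs and are not independent. On the brightest probe sets every Rb/p53 tumour lay above both lungs for those 4 genes, as for 18.2% of all genes. Every p130-deleted tumour did so for 5 genes, Ncam2 included, as for 32.8%. Among the 35 probe sets, 10 were higher in Rb/p53 tumours (16.0% of all probe sets) and 0 lower (16.1%). Without p130, 10 were higher (12.3%) and 1 was lower (12.7%). With the Gapdh difference as a covariate, limma called only Ncam1, in both comparisons. That difference did not overlap between tumours and lungs, so the fit can hardly separate it from tissue. In Rb/p53 tumours the Nrcam, Chl1 and Nfasc estimates were larger with it, at 3.54, 6.02 and 2.94, though no longer called. The share of all genes called with this covariate is not given here, so the lost calls are not a result about these genes. In bulk tissue, fewer cells of a type and less RNA per cell cannot be told apart.

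**Figure D1:**
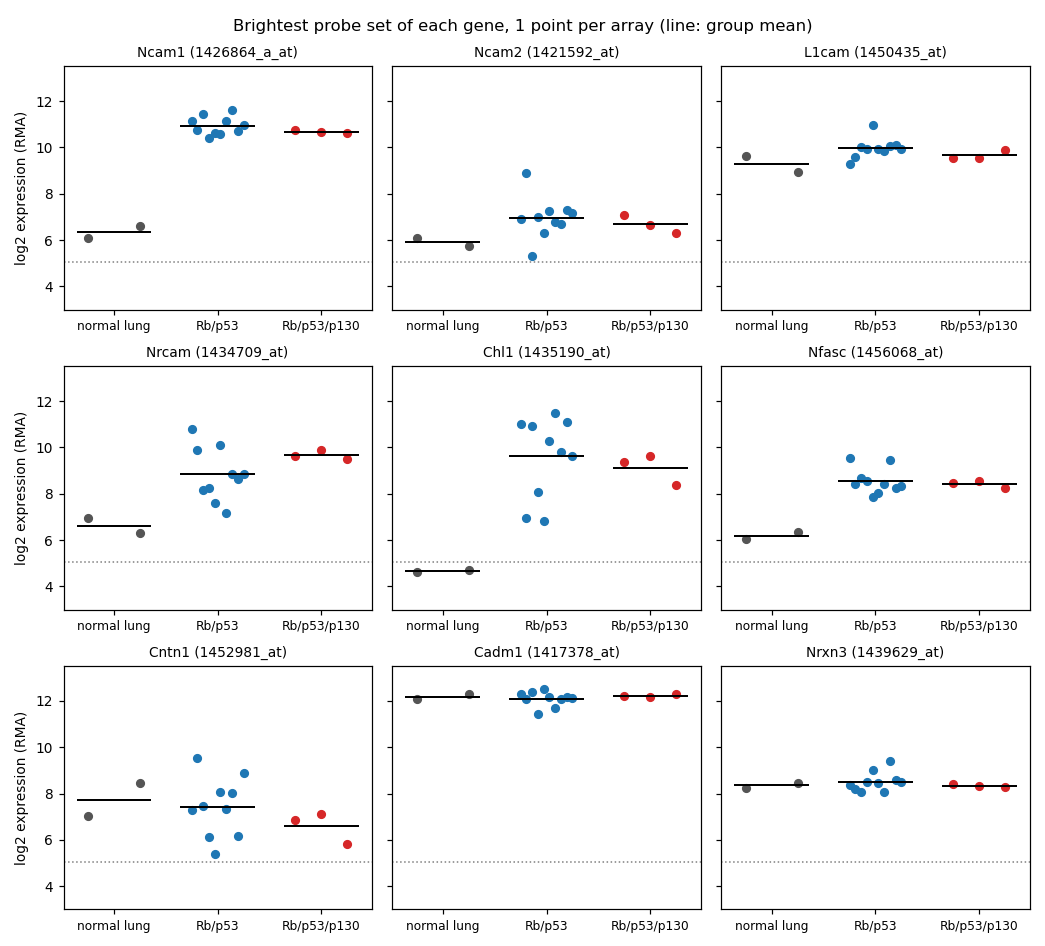
Log2 expression of the brightest probe set of each gene, with 1 point per array, horizontal lines at the group means and a dotted line at the floor of 5.05. All tumours lie above both lungs for Ncam1, Nrcam, Chl1 and Nfasc, while Cadm1 and Nrxn3 overlap between groups and Chl1 and Cntn1 are the most scattered among Rb/p53 tumours.

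Read through the brightest probe sets, Ncam1 was the most uniform of the 4 called genes. In Rb/p53 tumours the SD was 0.36 and 0.23 on the Nfasc probe sets 1459357_at and 1436205_at. It was 0.42, 0.31 and 0.40 on the other called Ncam1 probe sets. On probe set 1426864_a_at the Ncam1 level was 6.11 and 6.59 in the lungs. In the 10 Rb/p53 tumours it ran from 10.40 through a median of 10.87 to 11.62. Tumours 11 to 13 were at 10.75, 10.68 and 10.63. Every tumour lay far above both lungs, and the p130-deleted tumours fell inside the Rb/p53 range. The group means were 6.35 ± 0.33 (SD, n = 2), 10.94 ± 0.39 (SD, n = 10) and 10.69 ± 0.06 (SD, n = 3). The log2 difference from lung was 4.59 (SE 0.26, limma adjusted p = 1.02e-08) in Rb/p53 tumours and 4.34 (SE 0.31, limma adjusted p = 1.41e-07), a 20.2-fold difference, in the p130-deleted tumours. With the Gapdh covariate the differences were 4.91 (limma adjusted p = 9.79e-04) and 4.66 (limma adjusted p = 0.00261).

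The 7 Ncam1 probe sets split into a responding and a flat group. In Rb/p53 tumours 1426865_a_at differed from lung by 4.83, 1439556_at, below the floor in lung, by 3.77 and 1450437_a_at by 1.88 on the log2 scale, all called by limma. The same probe sets differed by 4.54, 3.28 and 1.42 in the p130-deleted tumours, again all called. Probe sets 1450438_at, 1425126_at and 1421966_at differed by 0.15, 0.09 and 0.19 in Rb/p53 tumours and were not called, and the latter 2 lay at or below the floor in all groups. Averaged over all 7 probe sets the difference was 2.22 in Rb/p53 tumours and 1.99 without p130, both called. Between tumours 1426865_a_at followed the brightest probe set (r = 0.95 over 13 tumours), whereas 1439556_at did not (r = -0.04). Tumour 8 shows the split, being the highest Rb/p53 tumour on 1426864_a_at at 11.62 and the lowest on 1439556_at at 7.44. Ncam1 transcripts are known to be spliced into several isoforms, and which isoform each probe set reads was not analysed here.

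Ncam2 was not called in any comparison. Its level on 1421592_at was 6.10 and 5.76 in the lungs, 5.31 to 8.91 with a median of 6.96 in Rb/p53 tumours and 7.10, 6.65 and 6.30 in tumours 11 to 13. Tumour 2 was the highest, and tumour 3 lay below both lungs. The log2 difference from lung was 1.03 (SE 0.57, limma adjusted p = 0.191) and 0.76 (SE 0.67, limma adjusted p = 0.471). On another probe set, 1425301_at, Ncam2 was highest in tumours 1 and 2 at 7.20 and 7.12, was 3.95 in tumour 3 and was 4.34 and 3.94 in the lungs. Its differences of 1.58 and 1.75 were not called either (limma adjusted p = 0.14 and 0.191).

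L1cam, the founding member of its family and a promoter of neurite outgrowth, was present in lung and tumour alike. Its level on 1450435_at was 9.64 and 8.92 in the lungs, 9.30 to 10.95 with a median of 9.94 in Rb/p53 tumours and 9.55, 9.54 and 9.90 in tumours 11 to 13. Rb/p53 tumours 1 and 2 and tumours 11 and 12 lay below the higher lung. The log2 difference was 0.69 (SE 0.29, limma adjusted p = 0.0875) in Rb/p53 tumours and 0.39 (SE 0.35, limma adjusted p = 0.476) in the p130-deleted tumours. The first difference was 0.77 and called without tumour 1 (limma adjusted p = 0.0409). It was 1.05 without lung 1 (limma adjusted p = 0.0737). It was smaller and not called without lung 2 (0.33, limma adjusted p = 0.622), with the Gapdh covariate (0.19, limma adjusted p = 0.926) and with both probe sets averaged (0.34). Without lung 2 the p130-deleted difference was 0.03. The other L1cam probe set lay at or below the floor in all groups.

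Nrcam, which gathers sodium channels at nodes of Ranvier, was higher in tumours but with a wide range. Its level on 1434709_at was 6.94 and 6.30 in the lungs, 7.17 to 10.81 with a median of 8.75 in Rb/p53 tumours and 9.64, 9.88 and 9.49 in tumours 11 to 13. On this probe set the lowest tumour, 7, was only slightly above the higher lung, while tumours 1, 2 and 6 lay near or above the p130-deleted tumours. The log2 difference from lung was 2.22 (SE 0.71, limma adjusted p = 0.0257), or 4.66-fold, in Rb/p53 tumours. Without p130 it was 3.05 (SE 0.83, limma adjusted p = 0.0142), or 8.29-fold. Of the other 3 probe sets, 1458833_at was called at 1.53 and 1.78, while 1443281_at at 1.19 and 1.72 and 1430583_at at 0.71 and 1.65 were not. All 4 probe sets ranked the tumours alike (r = 0.85 to 0.96 over 13 tumours). The Nrcam call did not hold without lung 1 (2.54, limma adjusted p = 0.0915) or lung 2 (1.90, limma adjusted p = 0.208) in Rb/p53 tumours, nor with its probe sets averaged (1.41, limma adjusted p = 0.0905). In the p130-deleted tumours it was 3.37 without lung 1 (limma adjusted p = 0.0521) and 2.73 without lung 2 (limma adjusted p = 0.106). With the Gapdh covariate the adjusted p was 0.288 for a difference of 3.54 and 0.231 for one of 4.44.

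Chl1, the close homologue of L1, was higher in both tumour groups and had the widest range of the 9 genes among Rb/p53 tumours. Its level on 1435190_at was below the floor in both lungs, at 4.62 and 4.70. In the Rb/p53 tumours, in order from 1 to 10, it was 11.02, 6.94, 10.92, 8.07, 6.84, 10.28, 11.50, 9.79, 11.09 and 9.64. Tumours 2, 4 and 5 were low and the other 7 high, and tumours 11 to 13 lay between at 9.37, 9.62 and 8.39. The log2 difference from lung was 4.95 (SE 1.08, limma adjusted p = 0.00245) in Rb/p53 tumours, and the tumour mean stood at least 23.6-fold above the floor. In the p130-deleted tumours it was 4.46 (SE 1.27, limma adjusted p = 0.0179), at least 16.9-fold above the floor.

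A second Chl1 probe set, 1417795_at, followed the first between tumours (r = 0.94 over 13 tumours) but gave smaller differences. It was 4.26 and 4.28 in the lungs, from 4.24 in tumour 5 through a median of 7.14 to 9.74 in tumour 7, and 5.74, 5.73 and 4.72 in tumours 11 to 13. Its differences of 2.56 and 1.12 were not called (limma adjusted p = 0.0817 and 0.581). The remaining probe sets 1447036_at and 1443713_at stayed between 3.28 and 5.19 on all arrays. With the Gapdh covariate the differences for 1435190_at were larger, at 6.02 and 5.59, but were not called (limma adjusted p = 0.243 in Rb/p53 and 0.346 in p130-deleted tumours). The Chl1 call in the p130-deleted tumours also did not hold without lung 1 (4.42, limma adjusted p = 0.098), lung 2 (4.50, limma adjusted p = 0.083), tumour 11 (4.34, limma adjusted p = 0.0505) or tumour 12 (4.22, limma adjusted p = 0.0556). Averaged over its 4 probe sets the Chl1 difference was 1.80 in Rb/p53 tumours (limma adjusted p = 0.021) and 1.26 without p130, which was not called (limma adjusted p = 0.177).

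Nfasc, which encodes neurofascin, a partner of Nrcam at nodes and axon initial segments, was higher on all 3 of its probe sets. On 1456068_at it was 6.03 and 6.35 in the lungs, 7.85 to 9.52 with a median of 8.42 in Rb/p53 tumours and 8.46, 8.55 and 8.26 in tumours 11 to 13. On this probe set tumours 1 and 8 stood above the rest at 9.52 and 9.47, and no tumour overlapped the lungs. The log2 difference was 2.36 (SE 0.35, limma adjusted p = 9.97e-05), or 5.15-fold, in Rb/p53 tumours and 2.23 (SE 0.41, limma adjusted p = 9.21e-04), or 4.70-fold, in the p130-deleted tumours. Probe sets 1459357_at and 1436205_at differed by 2.31 and 2.18 in Rb/p53 tumours and by 1.72 and 1.96 in the p130-deleted tumours, all called. Between tumours the 3 probe sets followed each other only loosely (r = 0.35 to 0.52 over 13 tumours). Tumour 1 was the highest Rb/p53 tumour on 1459357_at at 8.64 but was 7.88 on 1436205_at. Tumour 8 was the highest on 1436205_at at 8.19 but was 7.84 on 1459357_at. With the Gapdh covariate the differences for 1456068_at were 2.94 and 2.84 and were not called (limma adjusted p = 0.0689 and 0.112).

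**Figure D2:**
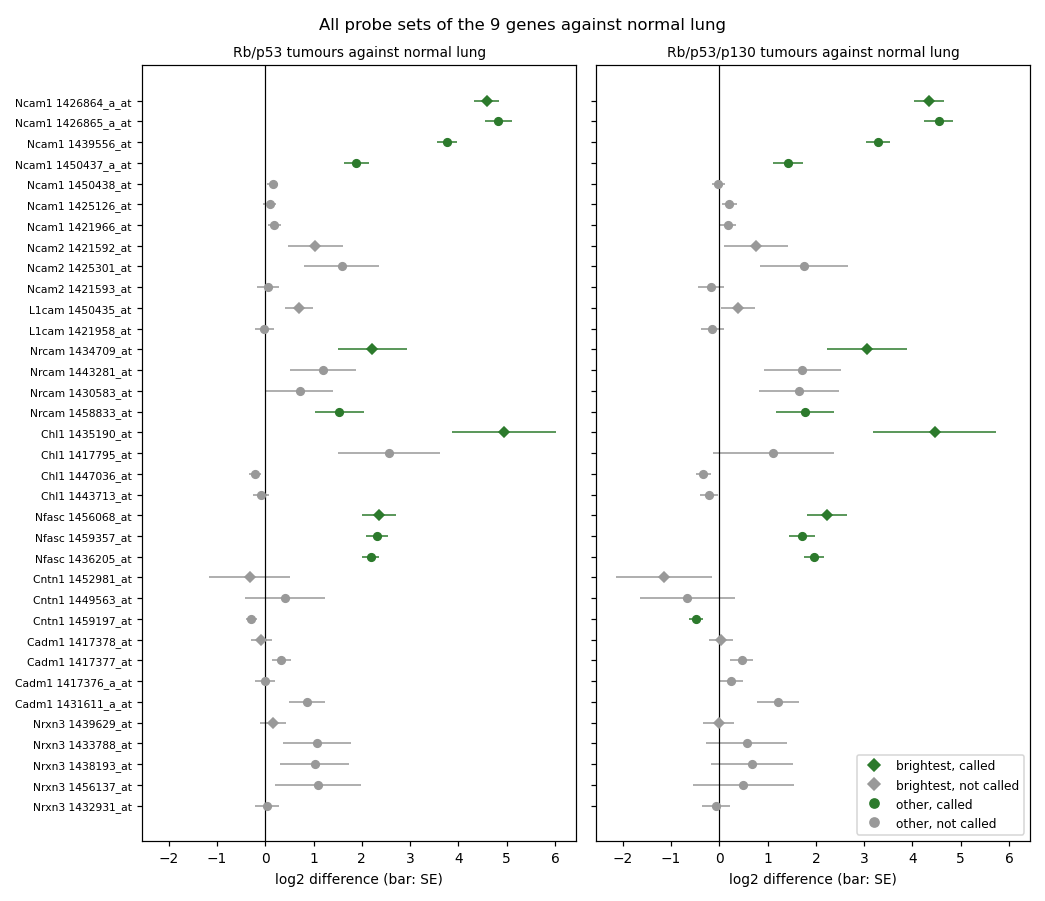
Log2 difference from normal lung (horizontal axis, bars of 1 SE) for all 35 probe sets, in Rb/p53 tumours on the left and p130-deleted tumours on the right, with diamonds for the brightest probe set of each gene and green for calls by limma. Green marks to the right of 0 belong to Ncam1, Nrcam, Chl1 and Nfasc, and the lone green mark to the left of 0 is the dim Cntn1 probe set 1459197_at.

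Cntn1, whose product binds L1-family proteins and Notch, varied widely in tumours around the level of lung. On 1452981_at it was 7.02 and 8.47 in the lungs, 5.39 to 9.55 with a median of 7.41 in Rb/p53 tumours and 6.85, 7.10 and 5.83 in tumours 11 to 13. Tumours 2 and 10 lay above both lungs, and tumours 4, 5 and 9 lay below both. The log2 differences of -0.32 (SE 0.84, limma adjusted p = 0.819) and -1.15 (SE 0.99, limma adjusted p = 0.452) were not called. Another probe set, 1449563_at, ranked the tumours almost identically (r = 0.99 over 13 tumours). Its difference from lung had the opposite sign in Rb/p53 tumours, at 0.41, and was -0.66 in the p130-deleted tumours. Neither was called (limma adjusted p = 0.759 and 0.695). The third, 1459197_at, was called lower in the p130-deleted tumours by limma, by -0.48 (adjusted p = 0.0194), at levels of 4.25 to 4.99 on all arrays, which are at or below the floor.

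Cadm1 was at a similar level in lung and tumour on its brightest probe set. On 1417378_at it was 12.07 and 12.28 in the lungs, 11.43 to 12.51 with a median of 12.14 in Rb/p53 tumours and 12.20, 12.17 and 12.28 in tumours 11 to 13. The lungs fell inside the tumour range, and tumours 4 and 7 were the lowest. The log2 differences of -0.08 (SE 0.21, limma adjusted p = 0.821) and 0.04 (SE 0.25, limma adjusted p = 0.934) were smaller than the SD of 0.32 among Rb/p53 tumours. Its dimmest probe set, 1431611_a_at, gave 0.87 and 1.21, not called (limma adjusted p = 0.0897 and 0.0555).

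Nrxn3 was level across the groups on its brightest probe set and uneven on the others. On 1439629_at it was 8.25 and 8.46 in the lungs, 8.06 to 9.42 with a median of 8.47 in Rb/p53 tumours and 8.41, 8.34 and 8.30 in tumours 11 to 13. Tumours 5 and 8 were the highest. The log2 differences were 0.16 (SE 0.27, limma adjusted p = 0.709) and -0.01 (SE 0.32, limma adjusted p = 0.988). On 1433788_at, 1438193_at and 1456137_at tumour 8 stood at 8.98, 8.33 and 8.94, above the next tumour at 6.98, 6.42 and 6.68. The lungs were 5.41 and 5.08, 4.69 and 4.66, and 4.45 and 4.62 on these probe sets. They ranked the tumours alike (r = 0.98 to 0.99 over 13 tumours), and their Rb/p53 differences of 1.07, 1.02 and 1.10 were not called (limma adjusted p = 0.286, 0.317 and 0.391).

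None of the 9 genes was called between the tumour genotypes by limma, and 0 of 9 had an unadjusted p under 0.05. Over all genes 0.0715% were called in this comparison. The median log2 difference without p130 was -0.26 over the 9 genes and 0.01 over all genes. The 95% intervals were narrow for Cadm1 (-0.26 to 0.50) and Ncam1 (-0.73 to 0.21). They were wide for Chl1 (-2.44 to 1.47), Cntn1 (-2.36 to 0.68) and Nrcam (-0.46 to 2.12). With 3 arrays against 10, a several-fold lower level of Chl1 or Cntn1 without p130 was not excluded, nor a several-fold higher level of Nrcam. Of the 35 probe sets 0 were called (0.211% of all), and 2 had an unadjusted p under 0.05, namely Nfasc 1459357_at at -0.59 and Ncam1 1439556_at at -0.49.

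Between Rb/p53 tumours all 9 genes had an SD above the median gene's 0.284, and Chl1, Cntn1, Nrcam and Ncam2 had the largest. Chl1 had an SD of 1.74 log2 units and a 25.3-fold range, at percentile 99.6 of the SD among all genes. Cntn1 followed with an SD of 1.28 (17.8-fold, percentile 98.4), Nrcam with 1.14 (12.4-fold, percentile 97.5) and Ncam2 with 0.902 (12.1-fold, percentile 95.2). The SD was 0.548 for Nfasc (percentile 83.9), 0.425 for Nrxn3 (73.6), 0.423 for L1cam (73.4), 0.395 for Ncam1 (69.9) and 0.317 for Cadm1 (57.1). For Nrxn3 the SD was 0.88 when its probe sets were averaged, close to that of Ncam2.

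No pair of the 9 genes could be shown to vary together. Over the 10 Rb/p53 tumours 54 correlations were computed, of the 36 pairs of the genes and of each gene with the mean of 8 neuroendocrine and of 15 resident lung markers. None passed after Benjamini-Hochberg adjustment, by Pearson or Spearman permutation tests of 100000 resamples, and 2 had a Pearson p under 0.05 before it. Ncam1 and Nfasc gave r = 0.69 (permutation p = 0.0266, adjusted p = 0.686, n = 10) and rho = 0.66 (permutation p = 0.0444, adjusted p = 0.862), with r = 0.54 without the 2 tumours farthest from the median. L1cam and Nrcam gave r = -0.65 (permutation p = 0.0367, adjusted p = 0.686, n = 10) and rho = -0.48 (permutation p = 0.167), and r was -0.31 without the 2 farthest tumours. Leaving out the farthest tumours narrows the range of a gene, so no conclusion is drawn from these changes in r. With the neuroendocrine markers Nrcam had r = 0.59 (permutation p = 0.0746, adjusted p = 0.686, n = 10).

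Among 18192 other genes, the 3 closest to each of the 9 by Pearson r over the 13 tumours are given as a description, without a test. Chl1 was most like Cntn3 (0.93), then Tarsl2 (0.89) and Wdr73 (0.87). Ncam1 was most like Atcay (0.92), Astn1 (0.90) and Limk1 (0.88), and Nfasc most like Lrfn3 (0.94), Gdap1l1 (0.93) and Cpne1 (0.92). Nrcam had Spcs3 (0.90), D5Ertd579e (0.89) and Tmed8 (0.89), and L1cam had Gm5124 (0.89), Hgs (0.89) and Med12 (0.88). Nrxn3 was nearest to Lrfn2 (0.95), Araf (0.92) and Mn1 (0.90), and Cntn1 to Cd300lg (0.87), Zfp169 (0.87) and Chpf2 (0.86). Cadm1 had Virma (0.88), Enox2 (0.87) and Igha (0.86), and Ncam2 had 1700018G05Rik (0.90), Vmn1r41 (0.88) and 2210039B01Rik (0.88). The first 2 of these lay below the floor in all tumours, at 4.12 to 5.02 and 3.74 to 4.19, so those correlations are between Ncam2 and background values. Lrfn2 and Cd300lg lay around the floor, at 4.85 to 5.41 and 4.89 to 5.32.

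Cntn3, a contactin expressed in the developing brain, is the coding gene next to Chl1 in the RefSeq order on chromosome 6, with Cntn6 and Cntn4 on the far side. Its level on 1438628_x_at in Rb/p53 tumours 1 to 10 was 9.29, 5.76, 8.79, 5.63, 6.23, 8.09, 10.09, 8.29, 10.12 and 8.27. It was 7.42, 7.32 and 5.87 in tumours 11 to 13, and 3.81 and 4.16 in the lungs. Tumours 2, 4 and 5, low for Chl1, were also the 3 lowest for Cntn3. The correlation with Chl1 was r = 0.94 over the 10 Rb/p53 tumours, and a second Cntn3 probe set, 1420739_at, gave r = 0.86. Cntn3 was called higher in Rb/p53 tumours (4.07, SE 1.05, limma adjusted p = 0.00772, at least 8.03-fold above the floor) and not in the p130-deleted tumours (2.89, SE 1.24, limma adjusted p = 0.108).

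The other neighbours followed Chl1 less closely or not at all. Cntn4 on 1438782_at gave r = 0.63 over the 10 Rb/p53 tumours and was highest in tumours 7 and 9 at 9.13 and 8.18. It was called higher than lung by 2.09 (SE 0.69, limma adjusted p = 0.0311, at least 3.69-fold above the floor). A second Cntn4 probe set, 1460321_at, gave r = 0.31, at 4.53 to 5.70 in Rb/p53 tumours and 4.65 and 4.72 in the lungs. Cntn6, between Chl1 and Cntn4, stayed below the floor, at 3.57 to 4.22. Ppp4r2, a phosphatase subunit gene, gave r = 0.37, Pdzrn3, a ubiquitin ligase gene, r = -0.42, and Il5ra, a cytokine receptor gene at 3.99 to 4.58, r = -0.70. The Il5ra levels lay below the floor, so that correlation is between Chl1 and background values. All these values come from the same arrays, so they share each array's RNA and normalization.

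**Figure D3:**
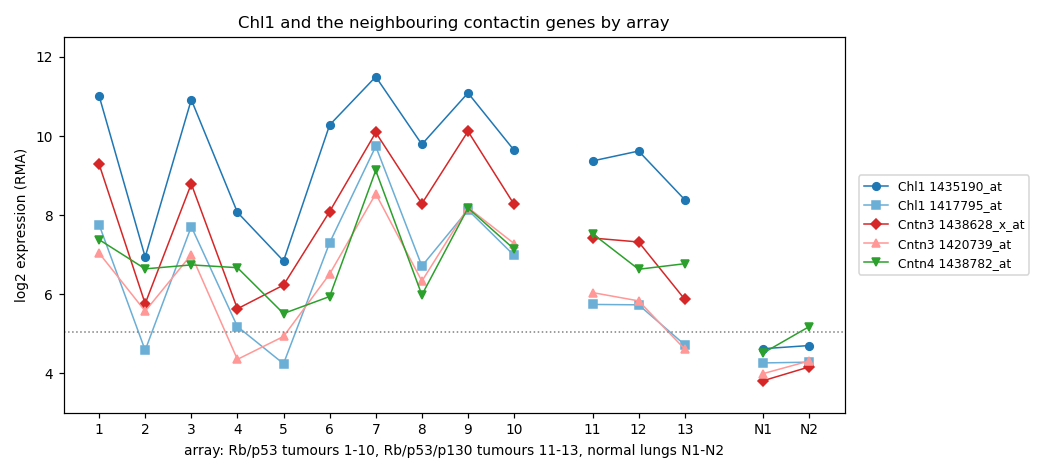
Log2 expression of 2 Chl1, 2 Cntn3 and 1 Cntn4 probe sets on each array, with Rb/p53 tumours 1 to 10, p130-deleted tumours 11 to 13 and the 2 lungs along the horizontal axis and a dotted line at the floor of 5.05. Chl1 and Cntn3 dip together in tumours 2, 4 and 5 and peak in tumours 7 and 9, and heights of different probe sets are not comparable.

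Known relatives and binding partners of the 9 genes were read from a list of 69, of which 65 were measured. Between Rb/p53 tumours and lung 20 were higher and 8 lower, where 18.3% of all genes were higher and 20.5% lower, and the median difference was 0.22 beside -0.02 over all genes. In the p130-deleted tumours 15 were higher and 8 lower, where 15.3% were higher and 15.6% lower over all genes. Between tumour genotypes 0 of 65 were called by limma and 5 had an unadjusted p under 0.05. With array weights 2 were called, Dscaml1 (0.88, limma adjusted p = 0.0129) and Nlgn2 (-0.63, limma adjusted p = 0.0368). Leaving out lung 1 or lung 2 reduced the Rb/p53 calls from 28 to 13 or 16, and the Gapdh covariate reduced them to 3, namely Dscaml1, Ptn and Numb. The share of all genes called in these settings is not given here.

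Among 23 measured relatives of the immunoglobulin type, 7 were higher and 2 lower in Rb/p53 tumours. Dscaml1, a homophilic molecule of neuronal spacing, was 4.06 and 4.09 in the lungs, 7.59 to 9.42 with a median of 8.94 in Rb/p53 tumours and 9.43, 9.85 and 9.81 in tumours 11 to 13. It differed from lung by 4.74 (SE 0.34, limma adjusted p = 1.06e-07) and 5.62 (SE 0.41, limma adjusted p = 1.65e-07). With both lungs below the floor, the group means stood at least 13.6-fold and 25.1-fold above the floor. Mcam, an adhesion molecule of vessels and melanoma, was lower by -1.87 (limma adjusted p = 2.75e-04), and Alcam by -0.87 (limma adjusted p = 0.00436). In those tumours all 6 endothelial markers were lower too, with list means of 6.54 to 8.62 against 10.75 to 11.34 in lung, and their part in the Mcam difference was not tested.

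Neurexins and their ligands had 5 of 12 measured genes higher in Rb/p53 tumours and none lower. Cbln4, a secreted cerebellin that bridges neurexins to their partners, was 3.86 and 4.26 in the lungs and 4.38 to 9.72 with a median of 8.49 in Rb/p53 tumours. Tumour 7 alone was near the lungs, and the difference was 4.11 (SE 1.16, limma adjusted p = 0.0135), with the tumour mean at least 8.69-fold above the floor that lung did not reach. Nlgn1, a postsynaptic neurexin receptor, was 4.85 and 4.09 in the lungs, 7.01 to 9.33 in Rb/p53 tumours and 8.56, 8.76 and 8.53 in tumours 11 to 13. Its differences were 4.02 (SE 0.47, limma adjusted p = 1.13e-05) and 4.14 (SE 0.55, limma adjusted p = 5.76e-05). Lung was below the floor here too, and the group means stood at least 10.8-fold and 11.9-fold above it.

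Of 11 other ligands and membrane partners, 5 were higher and 2 lower in Rb/p53 tumours. Ptn, the secreted growth factor pleiotrophin, had the largest difference of all 65 genes. It was 6.68 and 6.25 in the lungs, 11.68 to 12.58 in Rb/p53 tumours and 12.27, 12.57 and 12.53 in tumours 11 to 13, which was 52.3-fold (5.71, SE 0.20, limma adjusted p = 1.69e-10) and 63.7-fold (5.99, SE 0.24, limma adjusted p = 9.62e-10). Tnr, a matrix ligand of contactins, was higher by 2.30 (SE 0.78, limma adjusted p = 0.0354, at least 4.3-fold above the floor), with 9.45 in tumour 1 and 5.06 in tumour 5, inside the lung range of 4.22 to 5.49. Nrp1, a co-receptor of L1cam and of semaphorins, was lower by -2.18 (limma adjusted p = 9.95e-05), and Crtam, a lymphocyte receptor for Cadm1, by -0.52 (limma adjusted p = 0.00993) at levels near the floor. Of 5 measured NK and T cell markers 4 were lower in Rb/p53 tumours as well, with list means of 5.07 to 5.87 against 6.86 to 6.94 in lung, and their part in the Crtam difference was not tested.

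Among 6 enzymes that modify or shed these molecules, 1 was higher and 1 lower. St8sia2 and St8sia4 build the polysialic acid carried by NCAM. St8sia4 was 11.49 and 11.23 in the lungs and 8.21 to 10.94 in Rb/p53 tumours, lower by -1.69 (SE 0.49, limma adjusted p = 0.0157). St8sia2 was not called, at -0.60 (SE 0.33, limma adjusted p = 0.2), with tumours 7 and 8 above both lungs at 8.21 and 8.45. St8sia3, a related sialyltransferase, was higher by 2.04 (SE 0.37, limma adjusted p = 5.56e-04). The level of Ncam1 RNA and of the enzyme St8sia4 thus differed from lung in opposite directions, and polysialic acid itself was not measured.

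Of 13 cytoplasmic partners, 2 were higher and 3 lower in Rb/p53 tumours. Mpp3, a scaffold that binds CADM proteins, was higher by 2.52 (SE 0.28, limma adjusted p = 7.16e-06), and Apba1, an adaptor of neurexins, by 0.74 (SE 0.25, limma adjusted p = 0.0319). Sptbn1, the beta-spectrin to which ankyrins tie the L1 family, was lower by -1.62 (SE 0.20, limma adjusted p = 1.92e-05), and the ankyrin gene Ank3 by -1.02 (SE 0.29, limma adjusted p = 0.0144). Numb, an endocytic adaptor, was lower by -1.60 (SE 0.15, limma adjusted p = 1.10e-06).

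Cells that carry NCAM or L1 without being neuroendocrine were looked for through their markers. Of 7 measured Schwann cell markers, Mbp was higher in Rb/p53 tumours (1.28, limma adjusted p = 1.58e-05), and Pmp22 and S100b were lower (-3.46 and -0.51, limma adjusted p = 1.02e-04 and 0.0252). Sox10, the defining factor of that lineage, was 6.75 on average in both Rb/p53 tumours and lung, and Foxd3 lay at or below the floor in all groups. The mean of the Schwann list was 6.86 to 7.57 in Rb/p53 tumours, 7.12 to 7.29 in the p130-deleted tumours and 7.45 to 7.71 in lung. No NK and T cell marker was higher in either tumour group. Alveolar, endothelial and cardiac muscle markers were lower in tumours, in 3 of 4 alveolar type 2, 5 of 5 alveolar type 1, 6 of 6 endothelial and 5 of 5 cardiac genes for Rb/p53, and their part in the falls of other genes was not tested.

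Among the partners, tumour 8 held the highest Rb/p53 value more often than any other tumour, in 22 of 65 (33.8%). Over all genes it did so in 1937 (10.6%), fewer than the 2762 of tumour 3. Ncam1 and Nrxn3 were also highest in tumour 8, while tumours 1, 2 and 5 likewise held the highest value of 2 of the 9 genes each. Neuronal growth regulator Negr1 was 9.36 in tumour 8 against at most 4.59 in the other Rb/p53 tumours, and the neurotrimin gene Ntm was 10.25 against at most 7.51. The neurexin ligand Lrrtm4 was 7.96 against at most 4.63. Doublecortin, Dcx, which binds neurofascin, was 9.45 against at most 6.18, and the growth cone protein gene Gap43 was 10.70 against at most 7.59. In the lungs Gap43 was 7.82 and 8.75, above those other Rb/p53 tumours. Negr1 was 5.54 and 5.55 in the lungs and 6.57 in tumour 12. The neuroendocrine marker mean of tumour 8 was 11.94, and its Schwann marker mean was 7.38, both within the range of the other tumours. The nerve growth factor receptor gene Ngfr, a Schwann marker, was 7.79 there beside a group mean of 6.30. The other measured Schwann markers lay close to their group means in tumour 8. Sox10 was 6.74 (mean 6.75), Mbp 11.10 (11.30), Pmp22 9.53 (9.68) and S100b 5.22 (5.32). Egr2 was 6.79 (6.66) and Foxd3 4.51 (4.48). The partner genes named here for tumour 8 were singled out after their values were seen.

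**Figure D4:**
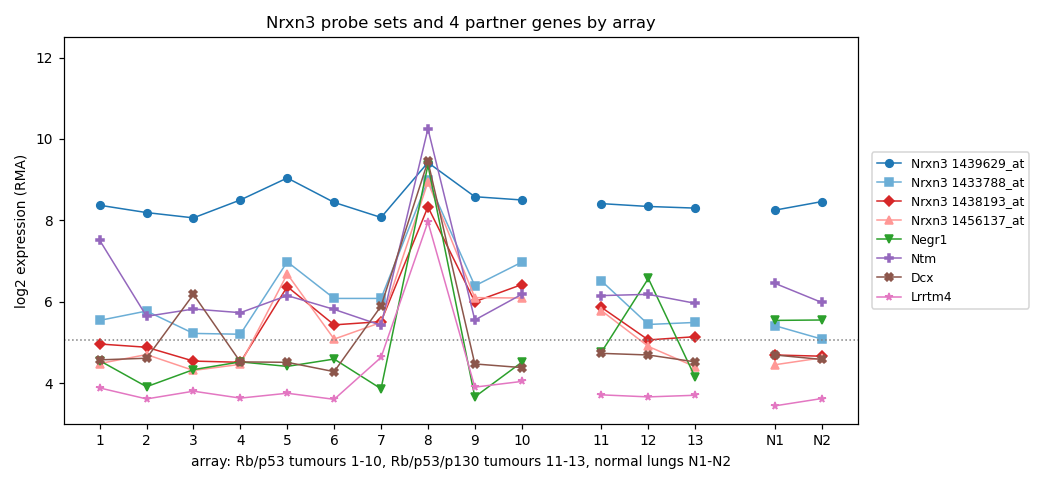
Log2 expression of 4 Nrxn3 probe sets and of Negr1, Ntm, Dcx and Lrrtm4 on each array, in the same array order as for Chl1, with a dotted line at the floor of 5.05. All 8 lines peak in Rb/p53 tumour 8, where Negr1 reaches 9.36 and Ntm 10.25, and heights of different probe sets are not comparable.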

How the data were processed

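Total RNA of 15 samples (10 Rb/p53 and 3 p130-deleted tumours, 2 lungs) was isolated with Trizol and amplified in 2 rounds with a RiboAmp kit, per the labels' protocols, and hybridised to Affymetrix Mouse Genome 430 2.0 arrays, per the series' design text. Amplification from the 3′ end can lower signal from probes far from it. The authors deposited log2 values made with RMA, per the submitters' processing notes, with no version in the sources used here. The values run from 3.11 to 15.20, with array medians of 6.58 to 6.68.

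No scan date or other batch was used here. Of 45101 probe sets 64 controls were left out. Of the rest, 34945 had 1 gene symbol, 932 several and 9160 none in GEO's platform annotation, and 34741 matched RefSeq. limma 3.58.1 (R 4.3.3) fitted all 15 arrays with the 3 groups and its eBayes step, and p-values were adjusted over all probe sets. The step was tested on simulated data. No pair of arrays held identical values. Precision is limited by how few arrays each group has.

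The members and lists were chosen with earlier results of these data known. All members were named with their probe sets, as were the 3 genes most like each by Pearson r, and up to 2 called rises and 2 falls per partner role. Alternatives were each array left out, quantile or median scaling, a filter on dim probe sets, array weights and a trended prior. Further ones were the Gapdh difference, the array number as a block on arrays numbered 1 and 2 only, and other rules for choosing a probe set. Correlations used permutation tests in scipy 1.17.1. Some listed partners and markers are not reported here.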

Additional observations from a re-analysis of the deposited data

Results flagged for a closer look

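In 100 sets of 10 Rb/p53 values, 1 for each member probe set and partner gene, 23 had a highest or lowest tumour set apart by Dixon's criterion, where chance gives about 5%. Over all genes, each read through 1 probe set, 8.81% had such a tumour. The 100 sets hold several probe sets of each member gene, so they are not independent and the shares are not of like units. Of the 23, 7 were member probe sets and 16 partner genes, and 16 lay in tumour 8.

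Among the members, tumour 8 was apart on 4 Nrxn3 probe sets, at 8.98 on 1433788_at, 8.33 on 1438193_at, 8.94 on 1456137_at and 5.39 on 1432931_at. L1cam 1450435_at was apart in tumour 5 at 10.95, above the next tumour at 10.11. The dim probe sets Cntn1 1459197_at in tumour 3, at 4.94, and Ncam2 1421593_at in tumour 2, at 5.19, were set apart near the floor.

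Among the partners, tumour 8 was highest and apart in 12 of 65 (18.5%), beside 1.06% of all genes. Those of the IgLON family were Negr1 at 9.36, Lsamp at 8.32, Opcml at 7.13 and Ntm at 10.25. The immunoglobulin relatives Dscam at 7.92 and Cntn5 at 5.10 joined them. The neurexin ligands were Lrrtm3 at 4.74, Lrrtm4 at 7.96 and Cbln2 at 5.32, the first of them below the floor. Cntn5 and Cbln2 were near the floor in tumour 8 and had every group mean below it. The matrix proteoglycan gene Ncan stood at 8.74, the microtubule protein gene Dcx at 9.45 and the growth cone gene Gap43 at 10.70. Tumour 7 was apart at the low end for Dscaml1 at 7.59 and Cbln4 at 4.38, tumour 6 at the low end for Nrxn2 at 7.09, and tumour 5 at the high end for Cask, a neurexin scaffold gene, at 10.80.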

How the results depend on the processing

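The 2 lungs set the precision of every comparison with normal tissue, and values near 5.05 cannot be told from background. Of the log2 differences under the alternatives, 647 kept direction and call, 17 lost a call, 3 gained one and 17 changed sign. All sign changes were in differences called in neither setting. With the Gapdh covariate, member calls went from 4 to 1 in each comparison with lung, and partner calls from 28 to 3 in Rb/p53 tumours and from 23 to 3 in the p130-deleted tumours. The share of all genes called under these alternatives is not given here. Array weights gave 35 partner calls in the p130-deleted tumours against lung and 2 between genotypes. Leaving out each array in turn gave 3 to 5 member calls in Rb/p53 tumours, 2 to 4 in p130-deleted tumours and 0 between genotypes. For partners the ranges were 13 to 33, 10 to 26 and 0. The lowest member counts were without either lung. In the p130-deleted tumours partner calls were 10 without lung 1, 14 without lung 2, 15 without tumour 11 and 14 without tumour 12.

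Averaging the probe sets of a gene ended the Nrcam call in Rb/p53 tumours (1.41, limma adjusted p = 0.0905) and the Chl1 call in the p130-deleted tumours (1.26, limma adjusted p = 0.177). Rb/p53 tumours 4 to 10 alone, a choice made after seeing the data because tumours 1 to 3 had the higher Gapdh differences of that group, gave 6 member calls, adding L1cam (0.83, limma adjusted p = 0.0345) and Ncam2 (1.00, limma adjusted p = 0.0135).

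Numbers 1 and 2 are shared by Rb/p53 tumours and lungs. Deviations of same-numbered arrays from their group means correlated at r = -0.004 and -0.055. The deviations of the 2 lungs mirror each other, so these values cannot show whether same-numbered arrays share more than a number. With the number as a replicate block, the fit held only Rb/p53 tumours 1 and 2 and the 2 lungs, as no other number is shared. All other tumours were left out, so its values do not isolate the block. In that fit 3 members were called (not Chl1, at 4.32 with limma adjusted p = 0.0542) and 27 partners. L1cam was 0.17, Cntn1 0.67, Cadm1 0.02 and Nrxn3 -0.08.

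Other sign changes from Rb/p53 or p130-deleted tumours against lung follow. The Gapdh covariate gave -0.13 and -0.47 for Ncam2, -0.14 for L1cam without p130, 0.30 for Cadm1 and -1.14 for Nrxn3 in Rb/p53. Averaged probe sets gave 0.28 for Cadm1 and, without p130, 0.33 for Nrxn3. Quantile scaling gave -0.02 for Cadm1 without p130. Leaving out each array gave -1.04 to 0.41 for Cntn1 and -0.18 to 0.03 for Cadm1 in Rb/p53, the upper ends without lung 2 and the lower without lung 1. In p130-deleted tumours it gave -0.06 to 0.15 for Cadm1 and -0.11 to 0.09 for Nrxn3, the lower ends without lung 1 and the upper without lung 2, and 0.02 for Nrxn3 without tumour 13. With tumours 4 to 10 alone Nfasc was 0.01 between genotypes. The cause was not tested.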
